A study of Mus musculus with 153 samples.

Results

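Polyadenylated RNA of whole dorsal hippocampus lysates was compared between mice that received a shock in a new context, collected in the 60 min set, and mice kept in the home cage. The members were chosen by column name in the 60 min count tables: 15 shock and 15 home cage lysate libraries, 30 of the 151 libraries analysed, and the 24391 genes listed in all 3 tables. The tables belong to 3 mouse lines, Camk2a.Cre/TRAPfl (5 shock and 4 home cage libraries), Pvalb.Cre/TRAPfl (6 and 6) and Sst.Cre/TRAPfl (4 and 5). Another 11 lysate libraries came from mice placed in the new context without a shock (box control: 3 Camk2a, 4 Pvalb and 4 Sst), and the same tables hold the purified fraction of each line. The submitters describe the libraries as biological replicates without naming animals, and every p-value given here reflects the scatter among these libraries; age was not given in the labels.

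All groups carry a Cre driver and the floxed TRAP allele, which tags ribosomes in Cre-expressing cells: Camk2a marks excitatory forebrain neurons, and Pvalb and Sst mark classes of inhibitory interneurons. A lysate is taken before purification, so it holds the RNA of every cell class whatever the driver, and a transcript that changes in a few cells is diluted by the rest. In bulk lysates, fewer cells of a type and less RNA per cell cannot be told apart. The labels call these samples neurons, but glial markers were abundant in them. The 10 oligodendrocyte markers summed to 8674 to 11123 CPM (read counts relative to all counts of the library) in shock lysates and 7896 to 13227 CPM in home cage lysates. The 10 astrocyte markers summed to 4838 to 6048 CPM in shock lysates and 4640 to 6066 CPM in home cage lysates. The 10 pyramidal neuron markers summed to 2079 to 6337 CPM in shock lysates and 1914 to 6435 CPM in home cage lysates.

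An aversive experience acts on hippocampal transcription along 2 well known routes. Synaptic activity raises calcium and cyclic AMP and switches on rapid activity genes within minutes through the factors CREB and SRF. CREB binds the cyclic AMP element and SRF the serum response element, and many of these transcripts decay within the hour. Stress also releases glucocorticoid hormone from the adrenal gland, which enters neurons, glia and vessel cells, binds the glucocorticoid receptor and induces genes that carry glucocorticoid response elements.

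Promoter windows from RefSeq (GRCm38.p6, 250 bases before to 50 after the transcript start) are shown for Sgk1, Egr2 and Dusp1. Windows that hold an element are the ones shown, with the element in capitals. It is a glucocorticoid response element in Sgk1 (chr10:21993640-21993939, plus strand), a serum response element in Egr2 (chr10:67537619-67537918, plus strand) and a cyclic AMP element in Dusp1 (chr17:26508423-26508722, minus strand).
Sgk1: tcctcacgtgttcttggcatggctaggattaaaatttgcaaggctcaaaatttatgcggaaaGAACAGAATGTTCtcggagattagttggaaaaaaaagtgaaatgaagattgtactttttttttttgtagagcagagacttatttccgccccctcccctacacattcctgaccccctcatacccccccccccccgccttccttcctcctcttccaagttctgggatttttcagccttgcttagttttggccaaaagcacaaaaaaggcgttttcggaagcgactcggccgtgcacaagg
Egr2: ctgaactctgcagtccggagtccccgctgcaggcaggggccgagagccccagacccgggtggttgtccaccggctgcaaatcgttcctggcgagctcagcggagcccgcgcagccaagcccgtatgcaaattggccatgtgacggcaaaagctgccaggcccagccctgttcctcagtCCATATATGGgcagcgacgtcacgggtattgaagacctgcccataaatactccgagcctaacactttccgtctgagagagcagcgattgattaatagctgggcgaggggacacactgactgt
Dusp1: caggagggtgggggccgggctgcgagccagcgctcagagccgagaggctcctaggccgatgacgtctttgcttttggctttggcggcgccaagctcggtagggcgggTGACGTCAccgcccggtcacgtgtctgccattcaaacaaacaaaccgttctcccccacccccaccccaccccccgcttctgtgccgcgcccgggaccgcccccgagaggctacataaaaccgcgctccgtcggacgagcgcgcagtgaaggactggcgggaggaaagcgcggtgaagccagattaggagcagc
The glucocorticoid response element was searched on both strands by its palindromic consensus, the full cyclic AMP element as TGACGTCA and the serum response element by its consensus. Of 32851 RefSeq promoters of 27025 genes, 156 (0.475%) held the first, 588 (1.79%) the second and 535 (1.63%) the third. Among the 27 glucocorticoid-induced genes listed for this comparison, 25 were matched, with 37 promoters; Map3k6, Mt1 and Sgk1 held the glucocorticoid element, and Arl4d and Errfi1 the cyclic AMP element. Among the 31 rapid activity genes, 23 were matched, with 32 promoters; Btg2, Dusp1 and Maff held the cyclic AMP element, Egr2 and Srf the serum response element, and none the glucocorticoid element. No window of the leading genes Tsc22d3, Klf15 and Fos held any of these full elements, and neither did the other windows of Sgk1. The shorter cyclic AMP sequence TGACG was also searched, and 6837 promoters (20.8%) held it. Among rapid activity genes 22 of 32 promoters held it, with Fos and Egr2 among the genes. Among glucocorticoid-induced genes it was 10 of 37 promoters, with Tsc22d3 and Sgk1 among the genes. The Klf15 window held it too. The difference between these shares was not tested. A match describes the letters of the window and no binding was measured.

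The libraries differed in ways the conditions do not account for. Total counts were 32931501 to 98402423 in shock lysates (median 67366769) and 36843030 to 275026148 in home cage lysates (median 68563971), and 3 Sst libraries, 2 of home cage and 1 of box, held over 250000000 counts. RNA of the choroid plexus, the epithelium that borders the hippocampus in the ventricle, split the libraries. Its marker Ttr stood above 1000 CPM in 8 of 15 shock and 7 of 15 home cage lysates. In the Sst line this held for 4 of 4 shock and 2 of 5 home cage lysates. All 8 choroid plexus markers were measured, none at 0, and they summed to 36.6 to 11804 CPM in shock lysates and 21.4 to 18847 CPM in home cage lysates. Libraries also differed in how levels depended on GC content. The slope, in log2 units per 10 percentage points of GC, ran between -1.23 and 0.64 in shock lysates and between -1.25 and 0.63 in home cage lysates. The Sst lysates other than those 3 ran between -1.31 and -0.02. By Y-linked genes, 4 of 15 shock and 9 of 15 home cage lysates were male. In the Camk2a line these were 0 of 5 shock and 3 of 4 home cage lysates, in the Pvalb line 3 of 6 in each group, and in the Sst line 1 of 4 shock and 3 of 5 home cage lysates, so sex nearly goes with condition in the Camk2a line. The driver transcript Sst was nearly absent from 2 lysates of the Sst line, both of shock. The 4 shock lysates held 0.333, 0.386, 56.3 and 279 CPM of Sst, against 52.8, 116, 125, 131 and 148 CPM in the 5 home cage lysates. Without those 2 shock lysates, an alternative added after their Sst level had been seen, 0 genes were called in shock against home cage over the lines and 0 in the Sst line. The 4 defining blood markers other than the 1 tested were at 0 in every lysate. The part of these differences in each gene's value was not tested one by one; the counts with GC slope, sex or choroid plexus level in the fit are given further on.

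**Figure D1:**
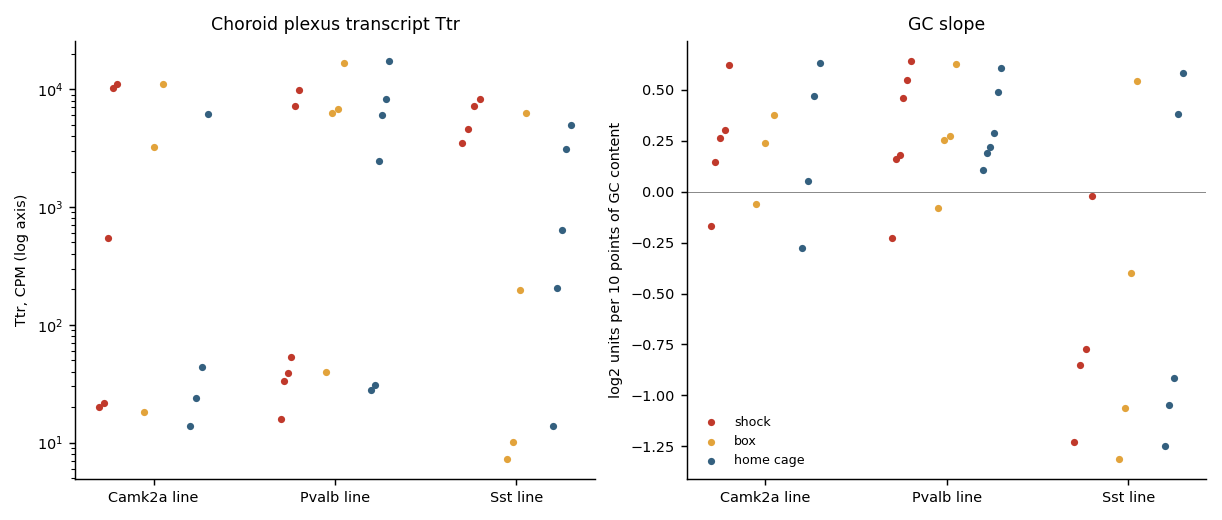
Level of the choroid plexus transcript Ttr (left, CPM, log axis) and GC slope (right, log2 units per 10 percentage points of GC) of each lysate library, by line, with shock left of box and home cage. Ttr stands above 1000 CPM in 8 of 15 shock and 7 of 15 home cage libraries, and the 3 Sst libraries of over 250000000 counts (1 box, 2 home cage) are those of their line with a slope above 0.

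Among genes above 1 CPM, those that ranked first were glucocorticoid targets and immediate early genes, higher after shock, and long noncoding RNAs, lower after shock, but no single gene passed the correction. Of 17445 genes tested, 0 (0.0%) passed an adjusted p of 0.05 (edgeR quasi-likelihood test, line as covariate, Benjamini-Hochberg over all genes tested). At the same time 663 (3.8%) had an unadjusted p under 0.05, 201 (1.15%) of them higher and 462 (2.65%) lower after shock. That balance turned with each library's GC slope as a further covariate, an alternative added after the spread of slopes had been seen: 911 genes (5.22%) were then higher and 727 (4.17%) lower at this threshold. DESeq2 called 4 genes (0.0229%; Sgk1, Egr2 and Mfap5 higher, Neat1 lower), and limma voom with library weights called 17 (0.0974%; 7 higher, 10 lower). With the GC slope in the fit edgeR called 20 genes (0.115%; 14 higher, 6 lower). The median log2 fold change over all genes was -0.02, and 7838 genes (44.9%) stood higher after shock, 2185 (12.5%) of them in all 3 lines; with the GC slope in the fit 8923 (51.1%) stood higher. No gene had shock and home cage libraries without overlap in all 3 lines. Vrk2 (higher) and Prr5l, Foxn3 and Styxl1 (lower) had it in 2, which is 1 gene (0.00573%) and 3 genes (0.0172%), singled out after their values were seen.

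**Figure D2:**
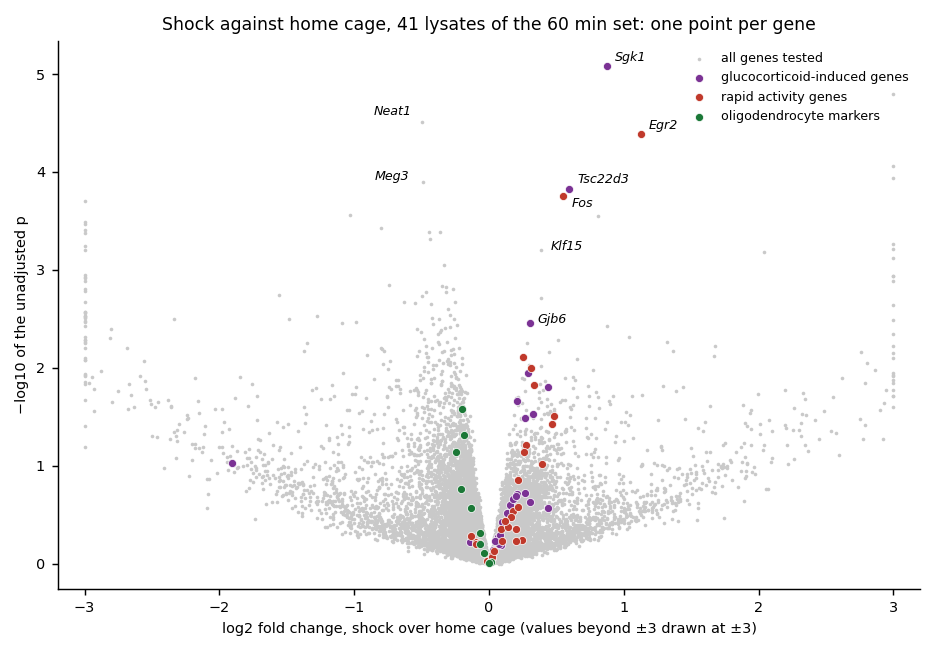
Log2 fold change of shock over home cage (x axis, values beyond 3 either way drawn at 3) and -log10 of the unadjusted p (y axis) for the 17445 genes tested in 60 min lysates, with 3 gene lists coloured. Sgk1 (0.87), Egr2 (1.12), Tsc22d3 (0.60) and Fos (0.55) lie highest on the right among listed genes and Neat1 (-0.50) and Meg3 (-0.49) on the left, and none passed the adjusted threshold.

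Sgk1, which encodes a glucocorticoid-induced kinase that regulates ion channels and transporters, headed the ranking by p (chr10:21882184-21999903, GRCm38, GENCODE M21). Its lowest, median and highest levels were 159, 292 and 488 CPM in shock lysates, against 84.0, 181 and 247 CPM in home cage lysates. In the Sst line the 4 shock lysates held 326, 332, 368 and 488 CPM and the 5 home cage lysates 102, 154, 187, 213 and 239 CPM. The groups overlapped in the Camk2a and Pvalb lines and were apart in the Sst line, as were those of 0.275% of all genes in this direction. The mean was 305 ± 87.9 CPM in shock lysates and 170 ± 53.6 CPM in home cage lysates (SD, n = 15 each). The log2 fold change was 0.87 ± 0.17 (SE), with an adjusted p of 0.139 by edgeR's quasi-likelihood test, and it was 0.69, 0.82 and 1.12 in the Camk2a, Pvalb and Sst lines. Leaving out any 1 of the 30 libraries kept the log2 fold change between 0.82 and 0.93 and the adjusted p between 0.0544 and 0.247.

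Tsc22d3, which encodes GILZ, a leucine zipper protein that mediates anti-inflammatory effects of glucocorticoids, followed among the higher genes of the same list (chrX:140539528-140600659). Its lowest, median and highest levels were 227, 330 and 550 CPM in shock lysates, against 159, 210 and 374 CPM in home cage lysates. In the Camk2a line the shock lysates held 231, 287, 289, 303 and 346 CPM and the home cage lysates 159, 161, 210 and 235 CPM. In every line the ranges overlapped, in the Camk2a line by 1 library on each side. The log2 fold change was 0.60 ± 0.14, with an adjusted p of 0.327 in edgeR, and the lines gave 0.61, 0.66 and 0.47. With the GC slope in the fit, Tsc22d3 had the smallest adjusted p of all genes (8.22e-05), followed by Klf15 (0.000613).

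Klf15, a transcription factor gene of amino acid and lipid metabolism that glucocorticoids induce in several tissues, was not on the list and was named by its rank among the higher genes (chr6:90462576-90475238). In the Pvalb line its shock lysates held 54.4, 58.4, 59.0, 64.6, 68.0 and 77.0 CPM, against 43.5, 48.0, 49.9, 50.0, 51.8 and 54.7 CPM in home cage lysates. The groups met there only at the lowest shock and the highest home cage library, while in the Sst line they overlapped widely. Over the lines the mean was 59.4 ± 14.9 CPM in shock lysates and 45.1 ± 13.5 CPM in home cage lysates (SD, n = 15 each). The log2 fold change was 0.39 ± 0.10, with an adjusted p of 0.435 in edgeR. Gjb6, which encodes the astrocyte gap junction protein connexin 30, averaged 143 CPM in shock and 120 CPM in home cage lysates, a log2 fold change of 0.30 ± 0.10. It stood at 0.09, 0.43 and 0.35 in the Camk2a, Pvalb and Sst lines.

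**Figure D3:**
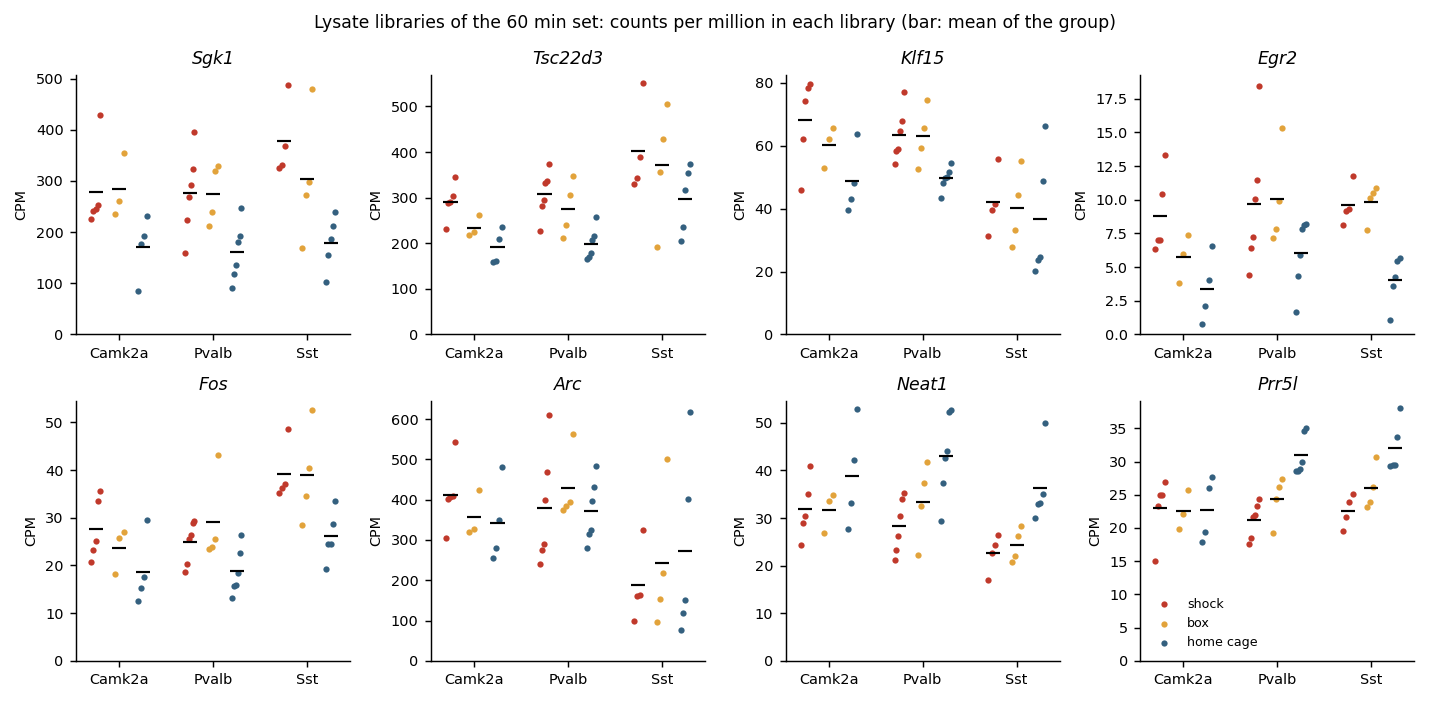
Level of Sgk1, Tsc22d3, Klf15, Egr2, Fos, Arc, Neat1 and Prr5l (CPM) in each lysate library of the 60 min set by line, with shock left of box and home cage and a bar at the group mean. Sgk1 and Egr2 separate shock from home cage in the Sst line, Prr5l separates them downward in the Pvalb and Sst lines, and Arc overlaps in every line.

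The gene lists, here and below, were chosen with earlier results of these data known, so their counts describe the members and test no list. Of the 27 glucocorticoid-induced genes, all tested, 25 stood higher in shock than in home cage lysates, with a median log2 fold change of 0.18 against -0.02 over all genes. No member (0) passed the adjusted threshold, against 0.0% of all genes; 8 were higher and 0 lower at an unadjusted p under 0.05, against 1.15% and 2.65% of all genes. Beside Sgk1, Tsc22d3 and Gjb6, these were Cdkn1a (0.44 ± 0.17), the cell cycle inhibitor p21, and Arl4d (0.32 ± 0.14), a small GTPase. The others were Nfkbia (0.29 ± 0.11), the inhibitor of NF-kappaB, Bcl6 (0.27 ± 0.12), a transcriptional repressor, and Errfi1 (0.21 ± 0.09), a feedback inhibitor of the EGF receptor. Of the 27, 13 were higher in all 3 lines, against 12.5% of all genes, and the median was 0.13 in the Camk2a, 0.27 in the Pvalb and 0.08 in the Sst line. With the GC slope in the fit, 3 members were called higher (Sgk1, Tsc22d3 and Gjb6), against 0.0803% of all genes. Gjb6 is also on the astrocyte list, of which 4 of 10 members stood higher and Gjb6 was the member with an unadjusted p under 0.05.

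Other classical glucocorticoid targets had smaller values. Fkbp5, a chaperone that restrains the glucocorticoid receptor, averaged 67.5 CPM in shock and 57.7 CPM in home cage lysates (log2 fold change 0.15 ± 0.13), with 0.39, 0.35 and -0.36 in the Camk2a, Pvalb and Sst lines. Per1, a clock gene that glucocorticoids also induce, averaged 15.8 CPM in shock and 14.1 CPM in home cage lysates (0.09 ± 0.18). The metallothionein genes Mt1 (0.07 ± 0.11) and Mt2 (0.08 ± 0.13) lay within their error of 0. Below 0 were 2 members, Map3k6 and Lcn2. Map3k6, a kinase gene, averaged 2.90 CPM in shock and 3.16 CPM in home cage lysates (-0.14 ± 0.27). Lcn2, which encodes the iron carrier lipocalin 2 (-1.91 ± 1.11), averaged 0.177 CPM in shock and 1.89 CPM in home cage lysates. Among 10 receptors and cofactors 4 stood higher, with a median of -0.03. The glucocorticoid receptor gene Nr3c1 stood at 84.3 CPM in shock and 87.2 CPM in home cage lysates (0.02 ± 0.17). The mineralocorticoid receptor gene Nr3c2 stood at 85.0 CPM in shock and 86.7 CPM in home cage lysates (-0.03 ± 0.09).

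**Figure D4:**
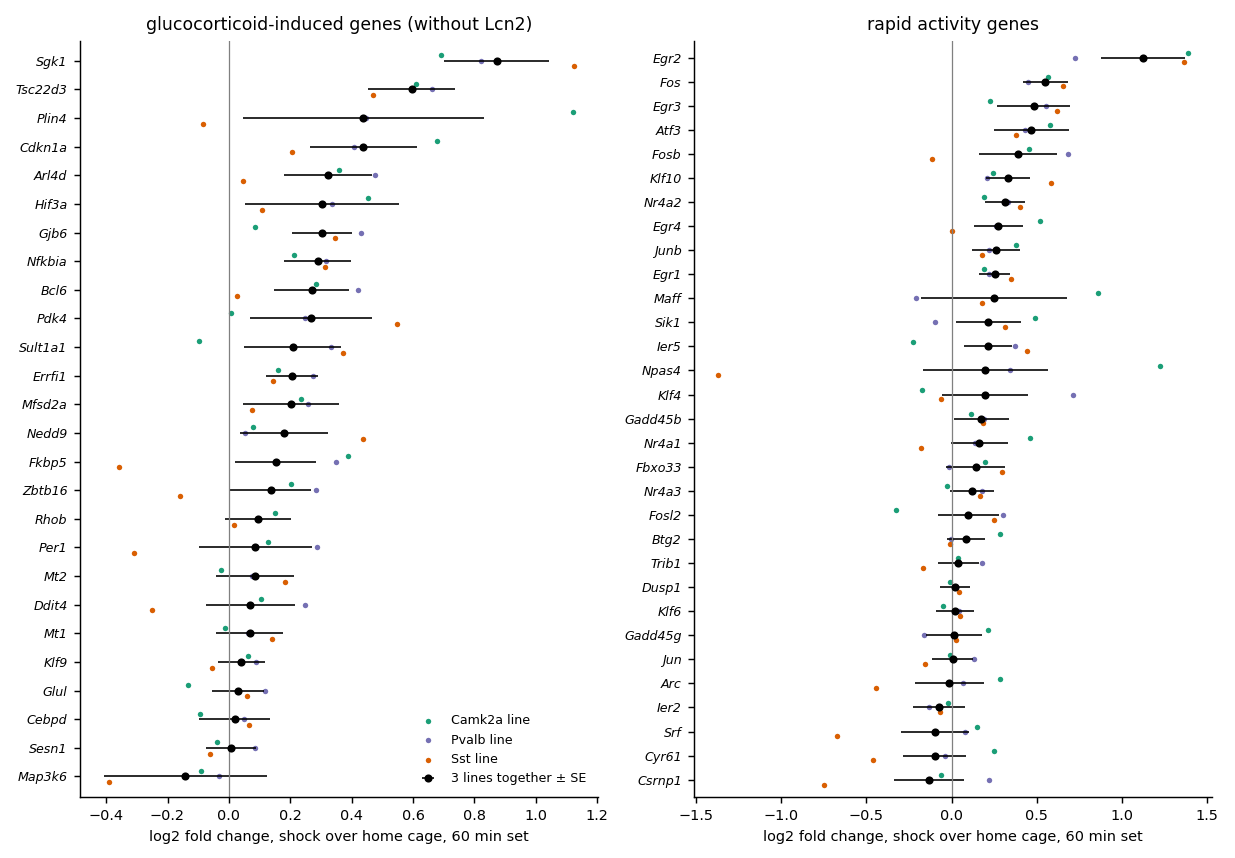
Log2 fold change of shock over home cage in 60 min lysates for each glucocorticoid-induced gene (left, without Lcn2 at -1.91) and each rapid activity gene (right): black, the 3 lines together with the standard error; coloured points, each line alone. Sgk1 and Tsc22d3 head the left panel and Egr2 and Fos the right, and 25 of 27 and 26 of 31 members lie above 0.

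Among rapid activity genes, Egr2 and Fos led. Egr2, a zinc finger transcription factor gene (chr10:67535475-67542188), had lowest, median and highest levels of 4.39, 9.16 and 18.4 CPM in shock lysates, against 0.779, 4.32 and 8.22 CPM in home cage lysates. In the Sst line the shock lysates held 8.13, 9.16, 9.34 and 11.7 CPM, against 1.08, 3.59, 4.30, 5.48 and 5.68 CPM in home cage lysates, without overlap. The groups overlapped in the Pvalb line and met at 6.35 CPM in shock and 6.56 CPM in home cage lysates in the Camk2a line. The log2 fold change was 1.12 ± 0.24, with an adjusted p of 0.177 in edgeR.

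Fos, which encodes a subunit of the AP-1 factor (chr12:85473890-85477273), had lowest, median and highest levels of 18.6, 28.9 and 48.5 CPM in shock lysates, against 12.5, 19.3 and 33.6 CPM in home cage lysates. The Sst shock lysates held 35.1, 36.3, 37.1 and 48.5 CPM, against 19.3, 24.4, 24.6, 28.6 and 33.6 CPM in home cage lysates. The groups were apart in the Sst line and overlapped in the other lines. The log2 fold change was 0.55 ± 0.13, with an adjusted p of 0.337 in edgeR and line values of 0.56, 0.45 and 0.65.

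Of the 31 rapid activity genes, 26 stood higher after shock, with a median log2 fold change of 0.17 and 7 higher and 0 lower at an unadjusted p under 0.05, against 1.15% and 2.65% of all genes. Beside Egr2 and Fos these were Egr3 (0.48 ± 0.22), Klf10 (0.33 ± 0.13), Nr4a2 (0.31 ± 0.12) and Egr1 (0.25 ± 0.09), all transcription factor genes, and the stress factor gene Atf3 (0.47 ± 0.22). Egr1 averaged 285 ± 44.6 CPM in shock lysates and 244 ± 26.3 CPM in home cage lysates (SD, n = 15 each). With the GC slope in the fit, 2 members were called higher, Egr2 and Fos, against 0.0803% of all genes. The median was 0.22 in the Camk2a, 0.19 in the Pvalb and 0.05 in the Sst line.

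Several of the best known activity genes lay within 1 SE of 0. Arc, which encodes a synaptic protein that drives receptor endocytosis, averaged 340 CPM in shock and 331 CPM in home cage lysates, a log2 fold change of -0.01 ± 0.20. Its line values were 0.28, 0.06 and -0.44, and its groups overlapped in each line. Npas4, a neuronal transcription factor gene induced by calcium, averaged 5.26 CPM in shock and 4.09 CPM in home cage lysates (0.20 ± 0.37), with line values of 1.22, 0.34 and -1.37. Dusp1, a MAP kinase phosphatase gene, stood at 42.4 CPM in shock and 43.1 CPM in home cage lysates (0.02 ± 0.09). Nr4a1, an orphan nuclear receptor gene, stood at 95.2 CPM in shock and 82.4 CPM in home cage lysates (0.16 ± 0.17). Of 24 delayed activity genes tested, 14 stood higher, 0 had an unadjusted p under 0.05 in either direction and the median was 0.04. Bdnf, the neurotrophin gene, averaged 90.3 CPM in shock and 87.2 CPM in home cage lysates (0.07 ± 0.13).

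The lysates of the 15 min set, 14 of shock and 10 of home cage, place these values in time. In a fit of both sets on the 17185 genes tested, 20 genes (0.116%) rose and 0 fell after shock at 15 min (edgeR quasi-likelihood test, Benjamini-Hochberg), 13 of them rapid activity genes. The rapid activity genes had a median log2 fold change of 0.79 at 15 min and 0.17 in the 60 min comparison; for the glucocorticoid-induced genes it was 0.16 at 15 min, with 2 called, and 0.18. The response itself differed between the sets at 6 genes (0.0349%), with 5 (0.0291%) lower and 1 (0.00582%), a gene model with no established symbol, higher at 60 min. It was smaller at 60 min for Arc (60 minus 15 min -1.60 ± 0.28, adjusted p 0.00289 in edgeR), Dusp1 (-1.19 ± 0.21, 0.00289), Nr4a1 (-1.16 ± 0.22, 0.0122), Cyr61 (-1.69 ± 0.34, 0.018) and Fos (-1.55 ± 0.33, 0.0431). Without the Camk2a line 6 genes were called. Without the Pvalb line 0 were called, with adjusted p of 0.929 for each of the 5, and without the Sst line 0, with adjusted p of 0.132 to 0.238. Without the 2 Sst shock lysates under 1 CPM of Sst 4 genes were called, and Fos had an adjusted p of 0.0597 in edgeR.

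For Sgk1 the log2 fold change was 0.84 at 15 min (adjusted p 0.0277 in edgeR), and the 60 minus 15 min difference was 0.03 ± 0.24 (adjusted p 0.985). Egr2 stood at 3.03 at 15 min and its difference was -1.91 ± 0.46, with an adjusted p of 0.139 in edgeR. The home cage levels of the sets were not alike, which was not tested. Arc averaged 175 CPM in the home cage lysates of the 15 min set and 331 CPM in those of the 60 min set, and Nr4a1 averaged 45.6 and 82.4 CPM in these groups. The set goes with the table in which a library was deposited, so the time after conditioning and the set cannot be told apart beyond each set's own home cage group.

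**Figure D5:**
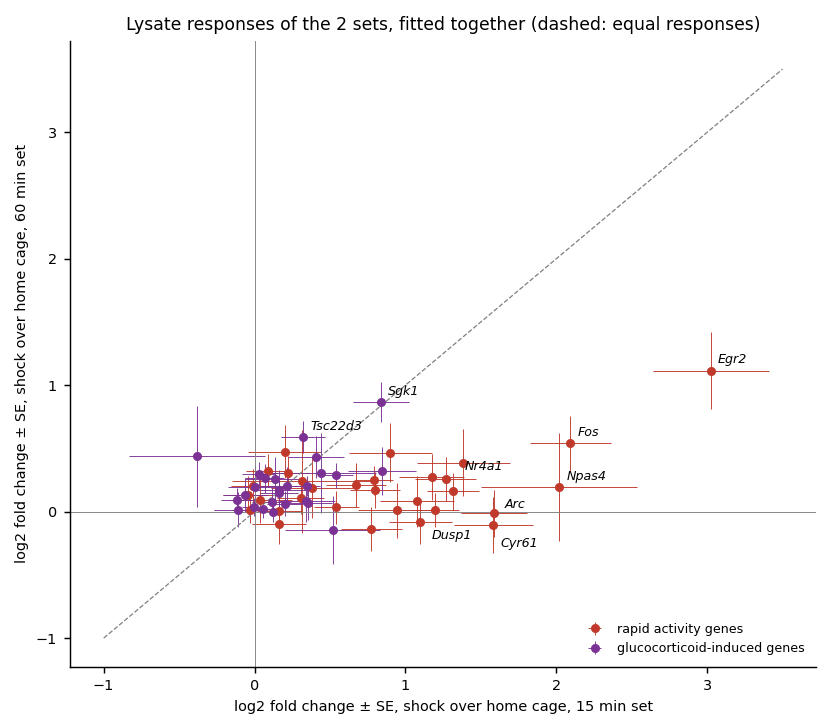
Log2 fold change of shock over home cage with its standard error in the 15 min set (x axis) and the 60 min set (y axis), fitted together, for rapid activity (red) and glucocorticoid-induced genes (purple); Lcn2 is not drawn. Arc, Dusp1, Nr4a1 and Cyr61 lie to the right near 0 on the y axis, and Sgk1 lies on the line of equal responses at 0.84 and 0.87.

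Among lower genes, 2 long noncoding RNAs ranked first. Neat1, the nuclear RNA that scaffolds paraspeckles (chr19:5824708-5845478), had lowest, median and highest levels of 17.0, 26.5 and 40.9 CPM in shock lysates, against 27.6, 37.3 and 52.8 CPM in home cage lysates. In the Sst line the shock lysates held 17.0, 22.7, 24.3 and 26.5 CPM and the home cage lysates 29.9, 33, 33.2, 35.0 and 49.9 CPM. The Sst groups were apart, as were those of 0.751% of all genes in the lower direction, and the others overlapped. The log2 fold change was -0.50 ± 0.11, with an adjusted p of 0.177 in edgeR and line values of -0.30, -0.56 and -0.61. Meg3, a maternally expressed imprinted RNA (chr12:109541001-109571726), averaged 156 ± 57.2 CPM in shock and 214 ± 40.2 CPM in home cage lysates (SD, n = 15 each). Its log2 fold change was -0.49 ± 0.12, with an adjusted p of 0.318 in edgeR.

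Prr5l, a gene of an mTORC2-associated protein (chr2:101714285-101883027), was lower without overlap in 2 lines. Its Pvalb shock lysates held 17.6, 18.5, 21.7, 22.0, 23.3 and 24.4 CPM, against 28.6, 28.6, 28.8, 30.0, 34.6 and 35.0 CPM in home cage lysates. Its Sst shock lysates held 19.6, 21.6, 23.9 and 25.2 CPM, against 29.4, 29.5, 29.5, 33.7 and 38.0 CPM in home cage lysates. The Camk2a groups overlapped, with a log2 fold change of 0.02 there, and the value over the lines was -0.33 ± 0.09 with an adjusted p of 0.553 in edgeR.

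Pde8a, a cyclic AMP phosphodiesterase gene, was also apart in the Pvalb line, as were 0.189% of all genes in the lower direction. It held 9.83 to 14.3 CPM in shock and 15.3 to 17.2 CPM in home cage lysates there, and its log2 fold change over the lines was -0.44 ± 0.12. Tmem88b, singled out after its values were seen, held 78.1, 78.8, 78.9, 80.9, 81.0 and 82.7 CPM in Pvalb shock lysates, against 108, 108, 114, 115, 115 and 117 CPM in home cage lysates. It overlapped in the other lines and averaged 78.9 CPM in shock and 103 CPM in home cage lysates over all lines (-0.35 ± 0.10, adjusted p 0.685 in edgeR; 0.00971 with the GC slope). Of the 10 oligodendrocyte markers, 1 stood higher, and 0 were higher and 2 lower at an unadjusted p under 0.05, against 1.15% and 2.65% of all genes, with a median of -0.10. Mog, a myelin glycoprotein gene, averaged 155 CPM in shock and 182 CPM in home cage lysates (-0.20 ± 0.09). Mal, a myelin proteolipid gene, averaged 268 CPM in shock and 314 CPM in home cage lysates (-0.19 ± 0.09). The median of these markers was 0.03, -0.20 and -0.23 in the Camk2a, Pvalb and Sst lines; their part in the lower values of Prr5l, Pde8a and Tmem88b was not tested. Of the 12 leading genes in each direction, 6 higher and 7 lower ones averaged under 1 CPM in both groups and are left without values. Those not yet described were Fam83d and Klhl6. Fam83d, a mitotic spindle gene, averaged 6.72 CPM in shock and 3.88 CPM in home cage lysates (0.81 ± 0.20). Klhl6, a ubiquitin ligase adaptor gene, averaged 2.06 CPM in shock and 3.61 CPM in home cage lysates (-0.80 ± 0.21).

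The other response lists had medians between -0.02 and 0.10, against -0.02 over all genes. Of all genes 44.9% stood higher, and 1.15% were higher and 2.65% lower at an unadjusted p under 0.05. Of 14 MAP kinase feedback genes 9 stood higher (median 0.06), and 2 had an unadjusted p under 0.05. They were Dusp6, an ERK phosphatase gene, at 107 CPM in shock and 82.9 CPM in home cage lysates (0.37 ± 0.15), and the Ras pathway inhibitor gene Spred2 (0.32 ± 0.15). Of 16 clock genes 9 stood higher (median 0.02), led by the repressor genes Ciart (0.34 ± 0.15) and Bhlhe40 (0.20 ± 0.08). Of 18 heat shock genes 11 stood higher (median 0.03). Hspa1b averaged 23.1 CPM in shock and 16.7 CPM in home cage lysates (0.56 ± 0.24). Its near-identical neighbour Hspa1a averaged 10.2 CPM in shock and 10.4 CPM in home cage lysates (0.01 ± 0.15), and reads of this pair may be split between them. Of 17 endoplasmic reticulum chaperone genes 12 stood higher (median 0.10), with Herpud1 at 0.19 ± 0.08. Of 20 ATF4 stress response genes 9 stood higher (median -0.02), of 15 inflammatory genes 8 (median 0.06) and of 25 translation control genes 13 (median 0.01). The stress kinase gene Eif2ak3 of the last list averaged 14.1 CPM in shock and 16.7 CPM in home cage lysates.

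Neuronal and housekeeping lists had medians between -0.06 and 0.06 over the lines, but some stood apart between lines. Over all genes 44.9% stood higher. Of 22 glutamate receptor genes 8 stood higher (median -0.05), of 14 GABA receptor genes 8 (median 0.06), of 18 postsynaptic scaffold genes 5 (median -0.05) and of 16 neuropeptide genes 10 (median 0.06). Gabbr1, a subunit of the metabotropic GABA receptor, averaged 295 CPM in shock and 325 CPM in home cage lysates (-0.21) and was the member of these lists with an unadjusted p under 0.05. Of 17 cholesterol synthesis genes 3 stood higher (median -0.06), of 82 cytosolic ribosomal protein genes 51 (median 0.03) and of 83 oxidative phosphorylation genes 55 (median 0.05). Of all 17445 genes, 9223 stood higher in the Pvalb line (median 0.01) and 7782 in the Sst line (-0.05). Scaffold genes higher numbered 16 of 18 in the Pvalb line (median 0.10) and 1 of 18 in the Sst line (-0.38). For ribosomal protein genes it was 15 of 82 (-0.04) in Pvalb and 70 of 82 (0.16) in Sst. For oxidative phosphorylation genes it was 20 of 83 (-0.05) and 65 of 83 (0.18). These list differences between lines were not tested. With the GC slope in the fit, 12 of 18 scaffold genes stood higher over the lines (median 0.01), against 5 without it. Ribosomal protein genes then stood at 55 of 82 (0.04) and oxidative phosphorylation genes at 58 of 83 (0.06). The part of the GC slope in the values of each line was not tested for these lists. Of the driver genes, Pvalb averaged 27.5 CPM in shock and 29.7 CPM in home cage lysates, and Camk2a 767 CPM in shock and 780 CPM in home cage lysates. Sst averaged 278 CPM in shock and 301 CPM in home cage lysates of the Camk2a line, 282 CPM in shock and 274 CPM in home cage lysates of the Pvalb line, and 84.0 ± 133 CPM in shock and 115 ± 36.5 CPM in home cage lysates of the Sst line (SD, n = 4 and 5), where 2 shock lysates lay under 1 CPM.

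The cell type marker lists had medians on both sides of that of all genes, -0.02. Those of the astrocyte list (-0.02, 4 of 10 higher) and the oligodendrocyte precursor list (-0.03, 1 of 6 higher) lay close to it. The share higher over all genes was 44.9%. Among neuronal lists, 6 of 7 dentate granule markers (median 0.14), 4 of 10 pyramidal markers (-0.04) and 2 of 10 GABA neuron markers (-0.12) stood higher. All 8 choroid plexus markers were higher over the lines (median 0.42), with 0.93, -0.77 and 1.32 in the Camk2a, Pvalb and Sst lines. All 7 fibroblast and meningeal markers were higher over the lines (median 0.33), with -0.01, 0.49 and 0.51 in the Camk2a, Pvalb and Sst lines. No member of the choroid plexus or the fibroblast list had an unadjusted p under 0.05. All 5 ependymal markers stood lower over the lines (median -0.44), 2 of them at an unadjusted p under 0.05, against 2.65% of all genes. In the Camk2a line they went the other way (median 0.54, 5 of 5 higher). The Pvalb line gave -0.99 (0 higher) and the Sst line -0.39 (1 higher). The ependymal markers summed to 22.4 to 74.8 CPM in shock and 15.8 to 89.8 CPM in home cage lysates. Of 10 microglia markers 1 stood higher (median -0.10), of 11 endothelial markers 3 (median -0.09) and of 9 pericyte and smooth muscle markers 5 (median 0.16).

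The box control lysates came from mice that met the new context without a shock. Box and home cage lysates differed at 0 of 17445 genes (0.0%; edgeR, adjusted p under 0.05), with 307 genes (1.76%) at an unadjusted p under 0.05 and 2 called by DESeq2. Shock and box lysates differed at 0 genes (0.0%), with 266 (1.52%) at an unadjusted p under 0.05 and 2 called by DESeq2. These comparisons share groups with the shock against home cage comparison, so their values are set side by side only. Sgk1 averaged 305 CPM in shock, 288 CPM in box and 170 CPM in home cage lysates; its log2 fold change was 0.81 ± 0.18 for box over home cage and 0.06 for shock over box. For Fos the box over home cage value was 0.58 ± 0.14 and the shock over box value -0.03, and for Egr2 the shock over box value was 0.13. Tsc22d3 averaged 328 CPM in shock, 299 CPM in box and 230 CPM in home cage lysates, and Neat1 28.0 CPM in shock, 29.6 CPM in box and 39.7 CPM in home cage lysates. The median of the glucocorticoid-induced genes was 0.15 for box over home cage, with 21 of 27 higher. That of the rapid activity genes was 0.20 for box over home cage and -0.05 for shock over box. Endoplasmic reticulum chaperone genes had 0.17 for box over home cage (16 of 17 higher) and -0.08 for shock over box (1 of 17 higher).

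Each line alone gave 0 calls in edgeR (0.0%), with 596 genes (3.42%), 531 (3.04%) and 1124 (6.44%) at an unadjusted p under 0.05 in the Camk2a, Pvalb and Sst lines. DESeq2 called 16, 6 and 4 genes in these lines. The response differed between lines at 0 genes (0.0%; 611 genes, 3.5%, at an unadjusted p under 0.05, and 0 by DESeq2). Without the home cage replicate 3 the Camk2a line gave 3 calls, and without the home cage replicate 2, shock replicate 2 or shock replicate 3 the Sst line gave 1 each. In the Sst line Fn3krp, the gene of a deglycating kinase, led by p: the 4 shock lysates held 0.979, 1.51, 30.9 and 38.2 CPM and the 5 home cage lysates 0.919 to 2.97 CPM. It was high in 2 of the 4 shock lysates, while the other 2 lay within the home cage range. The 2 high lysates are those under 1 CPM of Sst. Shb, the gene of a signalling adaptor, held 2.58 to 4.02 CPM in Sst shock and 3.80 to 11.3 CPM in Sst home cage lysates.

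The lysate response was also set against that of the purified fraction of the same tables. The lysate response minus the purified response differed from 0 at 3509 of 17167 genes (20.4%; edgeR, 1277, 7.44%, higher and 2232, 13%, lower) in the Pvalb line, and at 0 with the replicate number as a block, so the values of that line that follow are called without the block only. The block fit left out the purified Pvalb home cage libraries matched to a group only, so these counts do not rest on the same libraries. The lysate minus purified response differed at 7 of 16878 (0.0415%) in the Sst line and at 0 of 16519 (0.0%) in the Camk2a line. In the Camk2a line 2376 (14.4%) had an unadjusted p under 0.05 and DESeq2 called 120. In those fits the purified fraction itself responded at 7153 (41.7%), 543 (3.22%) and 339 (2.05%) genes in the Pvalb, Sst and Camk2a lines. Tsc22d3 was higher in the lysate response of the Pvalb line by 0.76 ± 0.23 (adjusted p 0.0229 in edgeR), with 0.66 in lysate and -0.10 in the purified fraction. Gjb6 was higher there by 0.92 ± 0.21 (0.00509), with 0.43 in lysate and -0.49 in the purified fraction. The astrocyte list, which holds Gjb6, had a median of -0.53 in the purified fraction of this line (3 of 10 higher). Its median lysate minus purified difference was 0.44 (7 of 10 above 0), and its part in the Gjb6 value was not tested. Arc was lower in the lysate response of the Pvalb line by 1.06 ± 0.35 (difference -1.06, adjusted p 0.0343), with 0.06 in lysate and 1.12 in the purified fraction. Sgk1 gave differences of 0.13, 0.60 and -0.33 in the Camk2a, Pvalb and Sst lines, with adjusted p of 0.905, 0.127 and 0.859 in edgeR. In the Sst line Btg2, an antiproliferative immediate early gene, had -0.01 in lysate and 1.82 in the purified fraction (difference -1.83 ± 0.32, adjusted p 0.024 in edgeR). Rgs10, a regulator of G protein signalling, had -0.06 in lysate and -2.17 in the purified fraction (2.12 ± 0.32, 0.01). The 10 microglia markers also fell in the purified fraction of the Sst line (median -1.53, 0 higher). Their median lysate minus purified difference there was 1.23, with 10 of 10 above 0. Whether Rgs10 moved with these markers was not tested.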

How the data were processed

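Dorsal hippocampus RNA was extracted with the RNeasy Mini kit and made into Nextera XT libraries, per the labels' protocols. Raw read counts per gene and library were deposited for each line and set; the submitters' processing notes name STAR 2.7.7a, featureCounts, DESeq2 and GRCm38 without roles. The kit does not mark strand, so a read in 2 overlapping genes, sense or antisense, could come from either. CPM were computed over all counts listed in a library. Of 153 labelled samples, 151 have a column, 3 of them matched to a group only. No library pair agreed within counting noise: over 77 pairs of 1 group the smallest reduced chi-square was 20.07.

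All 41 lysates of the 60 min set entered 1 edgeR 4.0.16 quasi-likelihood fit (R 4.3.3; filterByExpr on line and condition, TMM, robust) with line and condition; SE is the log2 fold change over the root of F. Separate fits held a mean for each line and condition, both sets together, and lysate with purified fraction per line. The threshold was a Benjamini-Hochberg adjusted p of 0.05. DESeq2 1.42.0, limma 3.58.1 voom, other scalings, filters and covariates, and leaving out lines or libraries were alternatives. GC content was that of the longest GENCODE M21 transcript (96.2% of tested genes matched). Named genes were those past a threshold, the 12 leading in each direction, up to 6 members of each list by p, and a standing set. Members, lists and part of the alternatives were chosen with earlier results of these data known. On simulated counts with 100 genes changed at each size, the main test recovered 41% at 1.5-fold and 92% at 2-fold, with 3 false calls. Within the Pvalb line it was 5% and 44%, with 5 false calls. For the set difference it was 31% and 70%, with 13 false calls. For the Pvalb fraction difference it was 6% and 30%, with 7 false calls. Counts of 0 genes therefore leave room for changes of these sizes.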

Additional observations from a re-analysis of the deposited data

Results flagged for a closer look

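In the response at 60 min minus that at 15 min, tested as a difference of the sets, Arc (-1.60), Cyr61 (-1.69), Fos (-1.55), Dusp1 (-1.19) and Nr4a1 (-1.16) passed the threshold in edgeR. The lysate and purified responses differed at 3509 genes in the Pvalb line and 7 genes in the Sst line, by the test of the difference itself. With the replicate number as a block, which left out the purified Pvalb home cage libraries matched to a group only, the Pvalb count was 0.

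Over 15 genes and 120 groups of lysate libraries, 7 groups had a highest library far from the next. Chance alone gives about 1 in 20 groups, so these 7 groups lie near the number that chance gives. For shock these were Sgk1 in the Camk2a line, at 428 CPM with the next library at 253 CPM, and Fos in the Sst line, at 48.5 CPM with the next at 37.1 CPM. For box these were Fos (43.3 CPM, next 25.6 CPM) and Arc (563 CPM, next 394 CPM) in the Pvalb line, and Nr4a1 in the Sst line (143 CPM, next 48.4 CPM). For home cage these were Dusp1 in the Pvalb line (55.4 CPM, next 41.5 CPM) and Neat1 in the Sst line (49.9 CPM, next 35.0 CPM). Whether anything other than chance set these libraries apart was not tested.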

How the results depend on the processing

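The count of 0 genes in shock against home cage became 4 with DESeq2, 17 with voom, 20 with the GC slope, 26 with GC slope and sex, 27 with GC slope and choroid plexus score, 2 with a GC offset (Klf15 and Sgk1), 4 with a glial and vascular score, 1 (Sgk1) with both sets fitted together and 1 (Klf15) without the Sst libraries of over 250000000 counts; the cause was not tested. It was 0 with other size factors, no filter, a stricter filter, no box libraries, sex or choroid plexus score alone, no robust step, without any 1 line, without the 2 Sst shock lysates under 1 CPM of Sst, and without any 1 of 30 libraries. DESeq2 gave 2 genes for box against home cage, 2 for shock against box, 19 for the set difference, 41 for the 15 min set, 16, 6 and 4 within the Camk2a, Pvalb and Sst lines, and 120 (Camk2a) and 303 (Sst) for lysate minus purified fraction. The set difference gave 0 without the Pvalb line and 0 without the Sst line, and with a stricter filter Fos had an adjusted p of 0.0519 in edgeR. With the GC slope the Pvalb line gave 1 gene and the Sst line 9, and a filter of 1 CPM in 6 libraries gave 11 genes for the Sst fraction difference. Leaving out 1 library gave 0 to 3 genes in the Camk2a line and 0 to 1 in the Sst line. Over 39 gene results and 1324 settings none reversed, 52 passed the threshold only under the alternative and 12 only in the main setting. Many of these settings left out only 1 library, and the genes were mostly leading ones of the same data. A reversal was therefore unlikely beforehand.

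Replicate numbers did not pair the lysates: over 14 same-numbered shock and home cage pairs, correlations of deviations ran between -0.594 and 0.697, 8 were over 0.1 and 4 shock libraries were closest to their own number. The replicate block gave 0 genes for shock against home cage. For lysate and purified fraction, pairs correlated between -0.0881 and 0.307 (Camk2a), -0.35 and 0.421 (Pvalb) and -0.699 and 0.663 (Sst). Same-numbered pairs had medians of 0.0962, -0.000288 and 0.00291 in these lines, against -0.0467, 0.00591 and 0.0681 for other numbers. The labels do not say whether equal numbers mark the same animal. With the block, the lysate minus purified test gave 0, 0 and 7 genes. At this depth, 6 of the 12 leading higher genes and 7 of the 12 leading lower genes averaged under 1 CPM in both groups.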
